A study of Rattus norvegicus with 30 samples.

Results

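The comparison set the proximal stump of the rat sciatic nerve 1 d after resection against the same nerve at 0 d. Its members were all 41012 non-control probes of the array, read on the 3 arrays labelled 1d_SN and the 3 labelled 0d_SN, which made up 6 of the 30 arrays of the series. The rats were adult male Sprague-Dawley animals of 180 to 220 g. Per the labels, 1 cm of the left sciatic nerve was resected just above its division, and 0.5 cm of nerve was collected later. The 0 d nerves served as the controls, and the labels do not say whether they had been cut or only exposed. The remaining arrays held nerve at 4, 7 and 14 d and the L4 to L6 dorsal root ganglia, where the cell bodies of the sensory axons lie, at all 5 days. The labels name groups of 6 rats but not how many rats went into each array. The methods call the 3 arrays biological replicates. The limma p-values and standard errors below rest on the spread between arrays of the same tissue and day, pooled over all 5 days. They therefore do not measure the spread of the 0 d and 1 d arrays alone.

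A peripheral nerve holds Schwann cells, which wrap axons in myelin, together with fibroblasts, a perineurial sheath, blood vessels and resident macrophages. After a cut, Schwann cells of the stump leave their myelinating state, cytokines and chemokines are made locally, and neutrophils and then monocytes enter from the blood. In whole tissue, a lower signal of a cell type's genes can come from fewer such cells or from less RNA per cell, and these cannot be told apart.

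The labelled tissue was checked against its defining markers. Pmp22, a protein of compact peripheral myelin, and Sox10, the factor that defines the Schwann cell lineage, were well above background on all 6 arrays. A level here is log2 of the spot signal with the array's 75th percentile set to 0. Skeletal muscle RNA was present as well, and unevenly. The 12 muscle markers summed to between 153 and 2210 at 0 d on the linear scale (array's 75th percentile = 1) and to between 157 and 397 at 1 d. The high end at 0 d was replicate 1, in which Acta1, skeletal muscle actin, stood at 7.68 against 3.12 and 3.59 in the other 0 d arrays. None of the 12 muscle markers was called by limma between the days, and none had an unadjusted p under 0.05 or was called by the methods' t-test, with 0 d arrays that spread widely. Without that array 1 of the 12 was called up and the median of the list was 0.75 instead of -0.57. The part of muscle RNA in the other results was not tested. Without that array 6706 probes were called up and 1371 down, against 6557 and 1206 with it, and its effect on single calls is given beside them.

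Arrays of the same day correlated at 0.985 to 0.992 at 0 d and at 0.993 to 0.994 at 1 d, and arrays of different days at 0.956 to 0.963. The 3 arrays of 0 d lay on 1 slide and those of 1 d on another, scanned on another day, so that within the nerve the slide and the day cannot be told apart. Between 34953 and 35165 probes were well above background at 1 d, and between 30227 and 31317 at 0 d. The 75th percentile itself was higher at 1 d, at 10.86 to 11 (log2 intensity) against 10.22 to 10.34. These values bear on dim genes in the results below.

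A gene was called at an adjusted p under 0.05 in limma together with a change over 2-fold, and was read from its brightest probe. Of 14319 genes tested, 2662 (18.6%) rose and 524 (3.66%) fell. At the adjusted p alone, 37.7% of all genes were higher and 26.1% lower. The counts of every gene list below are to be read beside these shares. By probe, 6557 of 35163 rose and 1206 fell, so that 84.5% of the calls were rises. That share moved with the scaling. It was 62.7% with the values deposited in the series matrix and 63.0% when each array was centred on the median of its probes, and the calls then came to 4255 up and 2534 down, and to 5018 up and 2948 down. The median change of all genes was 0.107 on the log2 scale. Among the 12349 genes well above background on all 6 arrays, the median was 0.005, with 1427 (11.6%) called up and 497 (4.02%) called down.

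The size and share of rises depended strongly on how bright a gene was. In genes whose mean level over the days was below -6, the median change was 1.463 and 58.4% were called up. Between -4 and -2 the median was 0.268 and 24.2% were called up, and between 0 and 2 the median was -0.079 with 4.57% called up and 3.80% called down. Above a level of 6, none of 183 genes was called up in this fit and 7.65% were called down. Of the 2662 genes called up, 943 were not well above background on any 0 d array, and for 413 of these even the lower bound of the rise was over 2-fold. Rises of dim genes are therefore to be read beside the share of all genes of that level that rose, while the share that fell was between 1.72% and 7.65% at every level. Other scalings moved the median change of all probes from 0.113 to -0.079 with the series matrix values and to -0.167 with median centring.

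**Figure D1:**
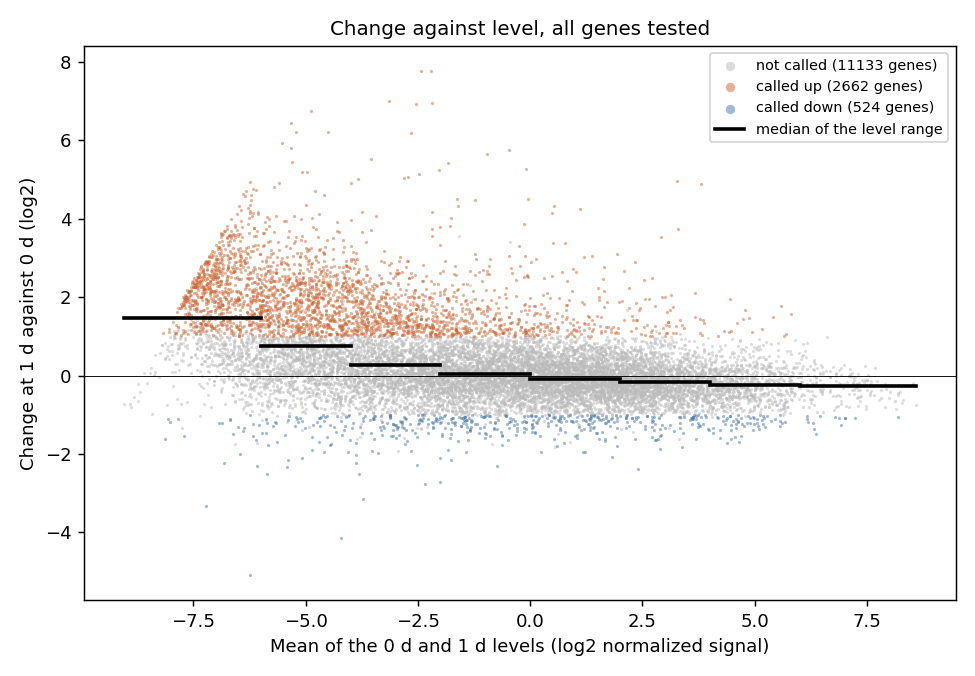
Each point is 1 of the 14319 genes tested, with its mean level over 0 d and 1 d (log2 normalized signal) on the horizontal axis and its change at 1 d against 0 d (log2) on the vertical axis. Orange points were called up, blue points down and grey points were not called. The black bars give the median change in each range of level, which ran from 1.463 in the dimmest genes to -0.257 in the brightest.

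The largest rise among genes detected on all 6 arrays was that of Vgf, a secreted neuropeptide precursor induced by nerve growth factor. Its levels were -5.81, -5.90 and -5.26 at 0 d and 1.31, 1.35 and 1.23 at 1 d. The days did not overlap, and the change of 6.96 ± 0.20 (SE) on the log2 scale, 124-fold, had an adjusted p of 1.16e-09. Fosl1, which encodes the AP-1 subunit FRA-1, stood at -2.86, -3.48 and -3.69 at 0 d and at 2.47, 2.35 and 2.40 at 1 d, a change of 5.75 (adjusted p = 3.7e-09). Nrg1, the neuregulin that acts on Schwann cells through ERBB receptors, went from -4.94, -4.33 and -4.64 to 0.42, 0.53 and 0.83, a change of 5.23. The other Nrg1 probe rose by 4.54. All of these genes were below the array's 75th percentile on every 0 d array and above it on every 1 d array.

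Cd8a, a coreceptor of cytotoxic T cells that some rat macrophages also carry, was at -5.60, -6.02 and -5.62 at 0 d and at 0.80, 0.08 and 0.39 at 1 d, a change of 6.17 (adjusted p = 4.19e-09). Epcam, an epithelial adhesion molecule, went from -4.33, -4.41 and -4.86 to 0.85, 0.82 and 0.94, a change of 5.41. Il1rl1, the receptor of interleukin 33, changed by 5.65, from -3.71, -3.16 and -4.46 to 1.67, 1.99 and 1.96. Its other probe changed by 0.82 and was not called, so the rise rests on the brighter probe. Serpinb10, an intracellular protease inhibitor of the ovalbumin type, rose by 5.13 from -5.13, -4.51 and -5.49 to 0.33, 0.06 and -0.12. In each of these genes the lowest 1 d array lay more than 4 units above the highest 0 d array, as the plot of leading genes by array shows.

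The smallest rises of the 12 leading genes detected on every array were those of Slpi and Cxcl14, which started from brighter levels. Slpi, a secreted inhibitor of neutrophil elastase, went from 1.11, 0.35 and 0.90 to 6.14, 5.50 and 5.59, a change of 4.96 ± 0.38. Cxcl14, a CXC chemokine made by epithelia and fibroblasts, went from 1.62, 1.43 and 1.04 to 6.14, 6.26 and 6.31, a change of 4.87 ± 0.13 (adjusted p = 6.37e-10). Of genes with a mean level between 2 and 4 over both days, the range that holds both, 3.05% were called up.

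A further 10 genes were chosen for not being well above background on any 0 d array while being so on all 1 d arrays, so their rises are given as lower bounds. Mcemp1, a membrane protein of mast cells and myeloid cells, was at least 32.0-fold higher, with 1 d levels of -1.14, -1.73 and -1.34. Trh, the precursor of thyrotropin-releasing hormone, was at least 29.7-fold higher and lay at -1.56, -1.48 and -1.48. Olr1, the receptor of oxidized low-density lipoprotein, was at least 19.7-fold higher. The bounds of the rest were 19.6-fold for the serine protease Prss22, 16.6-fold and 15.8-fold for the C-type lectin receptors Clec4d and Clec4e, 16.4-fold for the lectin Siglech, 15.1-fold for the antibacterial lectin Reg3g, 14.3-fold for Il6 and 14.2-fold for the chemokine Ccl20. The 3 arrays of 1 d agreed closely for Trh and spread most for Ccl20, at -3.73, -1.86 and -2.15.

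**Figure D2:**
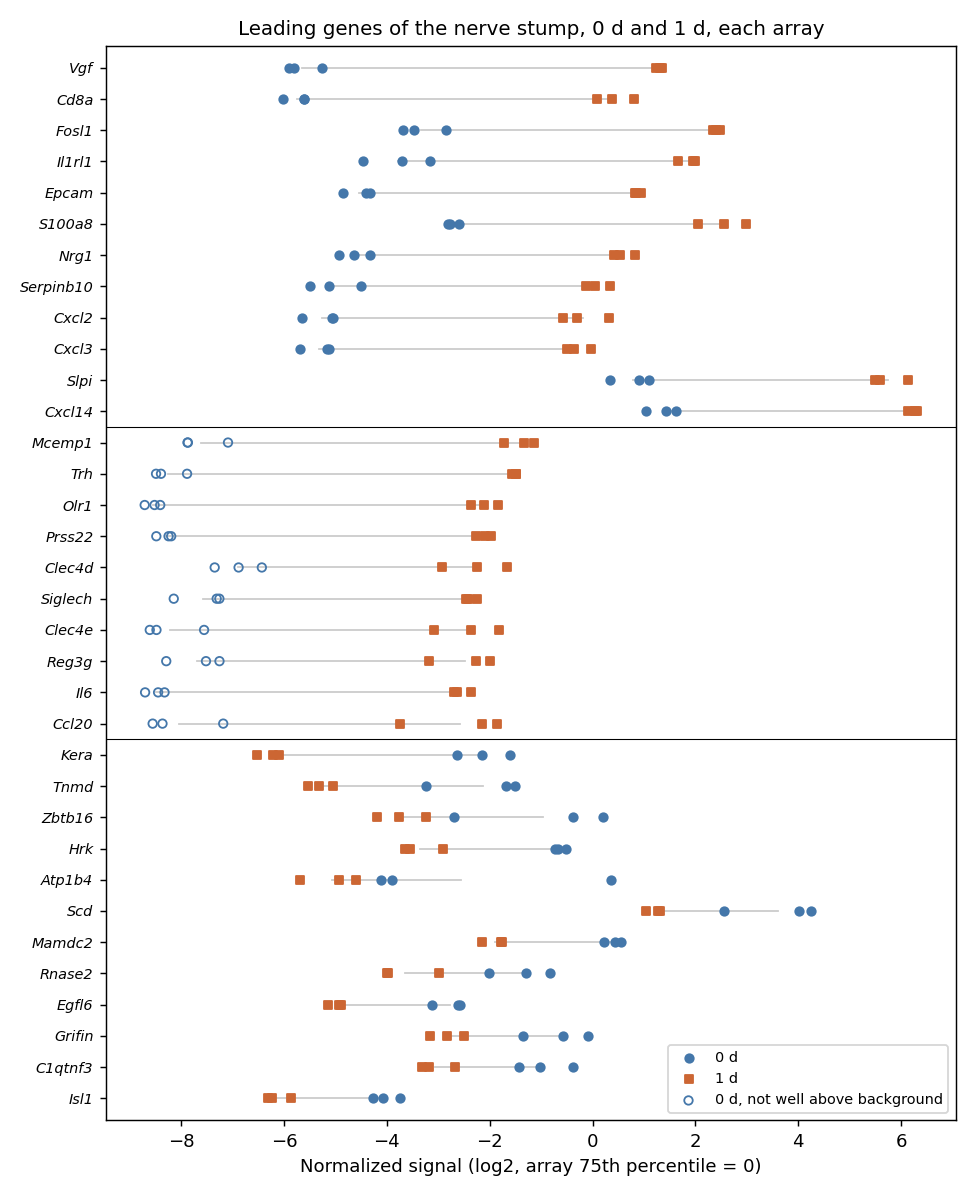
Level of each leading gene on each array (log2 normalized signal, array's 75th percentile = 0), with circles for the 3 arrays of 0 d and squares for the 3 arrays of 1 d. Open circles mark genes not well above background at 0 d, for which the rise is a lower bound, and grey lines join the means of the days. The upper blocks hold the rises, led by Vgf with 124-fold, and the lowest block the falls, in which Zbtb16, Scd and Atp1b4 show wide 0 d values.

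The falls were smaller. Kera, which encodes the corneal and tendon proteoglycan keratocan, fell from -2.15, -1.60 and -2.64 to -6.22, -6.09 and -6.52, a change of -4.15 ± 0.38 (adjusted p = 3.88e-06). Tnmd, tenomodulin, a membrane protein of tendon cells, went from -1.51, -1.67 and -3.23 to -5.04, -5.32 and -5.53, a change of -3.16. Hrk, a BH3-only promoter of apoptosis, went from -0.51, -0.67 and -0.73 to -3.64, -2.91 and -3.54, a change of -2.73. Neither day's values overlapped the other's in these genes. Isl1, a homeodomain factor of sensory and motor neurons, changed by -2.10, from -4.28, -3.74 and -4.08 to -5.87, -6.31 and -6.23.

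Mamdc2, Egfl6 and C1qtnf3, which encode secreted matrix or adipokine-like proteins, fell by 2.30, by 2.22 and by 2.11 on the log2 scale. Rnase2, an eosinophil-type ribonuclease, fell by 2.27, and Grifin, a galectin-like lens protein, by 2.15. For other falls the 0 d arrays differed among themselves. Zbtb16, a zinc finger factor induced by glucocorticoids, stood at 0.20, -0.38 and -2.69 at 0 d and at -3.76, -3.24 and -4.20 at 1 d, a change of -2.78 that was -3.64 without the lowest 0 d array, and its other probe, at -1.07, was not called. Atp1b4, a muscle protein of the Na,K-ATPase beta family, stood at 0.36 in the 0 d array with the high muscle signal and at -3.90 and -4.12 in the others, a change of -2.52 that became -1.06 (adjusted p = 0.138) without that array and was not called when any single 1 d array was left out. The other Atp1b4 probe, not above background at 0 d, was called up, so no direction can be given for this gene.

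Markers of neutrophils, the first leukocytes to enter injured tissue, had the highest median of all the gene lists. Of 15 tested, 14 rose, and the median change was 3.45. Their summed level went from 2.85 to 3.46 at 0 d to 56.1 to 87.3 at 1 d on the linear scale. Most of that sum was Slpi alone, at 6.14, 5.50 and 5.59 (log2) at 1 d, so the sum does not describe the other members. S100a8 and S100a9, the subunits of calprotectin, rose by 5.26 and by 4.51. The levels of S100a8 were -2.59, -2.77 and -2.82 at 0 d and 2.56, 2.06 and 2.98 at 1 d, and all 3 of its probes rose. Csf3r, the receptor of granulocyte colony-stimulating factor, rose by 4.17 from -5.82, -5.71 and -5.99 to -1.36, -2.07 and -1.57. Mmp8, neutrophil collagenase, was at least 4.98-fold higher and undetected at 0 d. Mpo, the myeloperoxidase of azurophil granules made in the bone marrow, was at -2.68, -3.54 and -4.40 at 0 d and at -3.18, -3.76 and -3.19 at 1 d and was not called. In 8 of the 15 markers at least 1 array of 0 d was not well above background, and 4 of the 14 rises started from no detection at all. With normexp background correction and quantile scaling 9 of the 15 were called, with a median of 1.12.

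Of 17 monocyte and macrophage markers, 14 rose, with a median change of 1.78 and a summed level of 61.5 to 71.1 at 0 d against 179 to 272 at 1 d. All 14 were well above background on every 0 d array. Msr1, the macrophage scavenger receptor, rose by 3.86 from -2.16, -2.19 and -1.89 to 1.79, 1.61 and 1.94. Gpnmb, a glycoprotein of lipid-laden macrophages, rose by 3.53 and Cd68, a lysosomal protein of phagocytes, by 1.41. The integrin Itgam and the inhibitory Fc receptor Fcgr2b rose by 2.80 and by 2.44. Adgre1, which encodes an adhesion receptor of macrophages, stood at 0.59, 0.68 and 0.62 at 0 d and at 0.97, 0.49 and 0.44 at 1 d, a change of 0.00 that was not called. Mrc1, the mannose receptor of resident macrophages, changed by 0.73 on its brighter probe, which passed the adjusted p but not the fold, and its other probe was called up at 1.16.

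Of 17 lymphocyte markers 7 rose, or 4 with the series matrix values, beside 18.6% of all genes in the main fit. Many of these markers were dim. At mean levels between -6 and -4, 39.6% of all genes were called up, and between -4 and -2, 24.2%. Cd3g, Cd4 and Prf1 were not called, at 0.16, 0.04 and 0.24. Besides Cd8a, its partner Cd8b rose by 3.73 from -3.93, -4.18 and -4.01 to 0.01, -0.74 and -0.22, whereas Cd3d, a subunit of the T cell receptor complex, rose by 1.73. Cd3e, another subunit of that complex, was at least 1.32-fold higher. The adhesion receptor Cd2 rose by 2.42, with 1 of 3 arrays of 0 d above background. The summed level of the list was 1.87 to 2.17 at 0 d and 4.57 to 5.79 at 1 d. Of 10 genes of dendritic cells and antigen presentation, 3 rose, beside 18.6% of all genes. Cd74, the invariant chain of MHC class II, went from 4.73, 4.97 and 4.64 to 3.85, 3.95 and 3.83, and RT1-Da, an MHC class II alpha chain, changed by -0.65, both past the adjusted p but short of 2-fold. Mast cell markers summed to 26.1 to 31.2 at 0 d and 17.0 to 19.9 at 1 d, with 2 of 10 down and 1 up. The mast cell protease Mcpt1 fell by 1.20.

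Among chemokines, the secreted signals that draw leukocytes, 13 of 25 tested rose and none fell past 2-fold. The neutrophil attractants Cxcl1, Cxcl2 and Cxcl3 rose by 3.06, by 5.07 and by 5.03. Cxcl2 went from -5.08, -5.64 and -5.04 to 0.33, -0.56 and -0.30. The monocyte attractants Ccl2 and Ccl7 rose by 3.74 and by 3.11, and Ccl2 went from 1.27, 1.33 and 1.65 to 5.25, 5.08 and 5.16. Ccl3 and the eotaxin Ccl24 rose by 2.74 and by 1.81, and the platelet chemokine Pf4 by 1.36. The T cell attractants Ccl5 and Cxcl10 were not called, with changes of 0.24 and 0.38. Cxcl10 values were 0.78, 0.03 and 3.14 at 0 d, a spread wider than the difference between the days. Cxcl12, a constitutive chemokine of stromal cells, stood between 4.06 and 4.18 at 0 d and between 4.05 and 4.29 at 1 d.

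Leukocytes leave vessels by way of selectins and integrins, and 7 of 16 genes of this step rose. P-selectin, Selp, undetected at 0 d, was at least 4.73-fold higher. The integrin chain Itgb2, which pairs with Itgam, rose by 2.90 from 0.80, 1.1 and 0.72 to 4.07, 3.54 and 3.70. E-selectin, Sele, rose by 1.04 (adjusted p = 0.0187), with 0 d values of -2.23, -3.19 and -1.31 against -1.38, -1.24 and -1.01, so that the days overlapped, and its change was 0.57 without the lowest 0 d array and 0.94 without the third 1 d array, neither of them called. Icam1 changed by 0.93, short of 2-fold, and Vcam1 by -0.15, which was not called. Endothelial markers as a whole summed to 82.6 to 84.9 at 0 d and 55.6 to 62.5 at 1 d, with 1 of 16 called, down. That gene was Cdh5, the cadherin of endothelial junctions, at 0.09, -1.16 and -1.07 against -1.79, -2.06 and -1.86, and without the 0 d array of the highest value its change was -0.79 and under 2-fold. The other Cdh5 probe, at -0.17, was not called.

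Of 20 genes of interleukin 6 family signalling, 10 rose and none fell past 2-fold, with a median of 0.99. Among the ligands, Il6 was undetected at 0 d and at -2.70, -2.36 and -2.63 at 1 d, and Clcf1, a ligand of the ciliary neurotrophic factor receptor, rose by 3.39 from -0.93, -0.86 and -0.97 to 2.43, 2.44 and 2.54 (adjusted p = 6.37e-10). Il11 was at least 1.46-fold higher. Lif, another ligand of the family, changed by 0.77 and was not called, with 1 of its 0 d arrays at -4.86 and the others at -3.15 and -3.25. Cntf, a factor that Schwann cells hold at high levels, changed by -0.61, past the adjusted p but short of 2-fold, and the receptor Lifr by the same amount. Downstream, Stat3, the transcription factor of the pathway, rose by 1.42 on its brighter probe and was at 0.98, short of 2-fold, on the other, and its inhibitor Socs3 rose by 2.92. Socs3 went from -4.32, -4.45 and -4.36 to -1.56, -1.38 and -1.43, a gap many times the spread of the arrays of either day.

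Of 20 receptors and feedback inhibitors of the interleukin 1 and NF-kappaB pathways, 9 rose and none fell past 2-fold. The antagonist Il1rn rose by 4.33 from -1.62, -1.36 and -1.93 to 3.21, 2.49 and 2.40. The decoy receptor Il1r2 rose by 3.06, and Zfp36, a protein that destabilizes cytokine mRNAs, by 2.66. The pattern receptor Tlr2 rose by 2.15, while Tlr4, at a change of 0.37, and the inhibitor Nfkbia, at -0.27, were not called. Of 29 interferon-stimulated genes, 1 rose and 2 fell with a median change of -0.47. That median was -0.12 with none down without the second 1 d array, and -0.08 with none down and 2 up without the third 0 d array, while 4 fell without the second 0 d array and 4 without the third 1 d array. By the methods' t-test 1 rose and none fell. Irf7, a factor of interferon production, stood at 4.91, 5.23 and 6.15 at 0 d and at 4.84, 3.13 and 4.71 at 1 d, with a gap between the days smaller than the spread within either. Irf7 and Ifi44, the members called down, at -1.20 and -1.06, stood at -0.65 and -0.72 and were not called without the second 1 d array, nor without the third 0 d array at -0.84 and -0.75. Without the second 0 d array Irf7, at -1.30, was not called either. The other Ifi44 probes, at -0.82 and -0.86, were not called. Isg15, at -1.07 with an adjusted p of 0.157, was not called.

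Of 30 early response transcription factors, 11 rose and 3 fell. After Fosl1, the neuronal and developmental factor Sox11, undetected at 0 d, was at least 10.7-fold higher, and the small MAF protein Maff rose by 2.69. Fos rose by 1.98 from -1.49, 0.00 and -1.49 to 1.06, 0.93 and 0.98, and Myc by 1.5 from 0.70, 1.31 and 0.44 to 2.09, 2.32 and 2.54. Jun, at 3.09, 3.43 and 2.81 against 3.22, 3.08 and 3.16, was not called, and neither was Atf3, at 2.99, 3.20 and 3.4 against 2.97, 2.87 and 2.75. Egr1 changed by 0.42 with 0 d values between 0.84 and 2.15. Klf5, a Kruppel-like factor, fell by 1.29 on its brighter probe and was at -0.78, short of 2-fold, on the other, and Atf5, a stress factor of the ATF family, by 1.17 from 5.93, 6.19 and 6.32 to 4.98, 5.01 and 4.95.

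Of 19 genes responsive to glucocorticoids, 5 fell and 2 rose, beside 3.66% and 18.6% of all genes, with a median of -0.45. The 2 that rose were Il1r2, by 3.06, and Hif3a, by 2.004. Among the 12 not called were Sgk1 at 0.05, Dusp1 at 0.086 and Per1 at -0.265. Tsc22d3, the leucine zipper protein GILZ, fell by 1.55 from 5.55, 5.24 and 5.2 to 3.26, 4.17 and 3.90. The cell cycle inhibitor Cdkn1c fell by 1.54 and the sulfotransferase Sult1a1 by 1.61. Zbtb16 belongs to this list too, as does the Kruppel-like factor Klf9, whose change of -1.02 was -0.79 without the first 0 d array, -0.94 without the second and -0.89 without the first 1 d array and then short of 2-fold, as was its other probe at -0.97. Fkbp5, a common reporter of the receptor, changed by -0.71 on its brightest probe, past the adjusted p but short of 2-fold. The other Fkbp5 probes, at -0.485 and 0.142, did not pass the adjusted p. With the series matrix values 6 fell and 3 rose, and without the first 0 d array 4 fell and 4 rose.

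Haem and iron handling had single large changes. Hmox1, haem oxygenase, rose by 4.25 ± 0.23 from -0.96, -0.81 and -1.31 to 3.34, 2.72 and 3.63 (adjusted p = 9.63e-08). Cd163, the scavenger receptor of haemoglobin, and Slc11a1, a phagosomal metal transporter, rose by 2.19 and by 2.23. Of the wider list of NRF2 targets, to which Hmox1 belongs, 6 of 26 rose and 1 fell, beside 18.6% and 3.66% of all genes. Gclm, a subunit of the glutathione-making ligase, was at least 2.96-fold higher, the metallothionein Mt2A rose by 2.05 and the mitochondrial dismutase Sod2 by 1.5. Nqo1, a textbook NRF2 target, was not called at -0.22, and the neural metallothionein Mt3 fell by 1.02, or by 0.88 without the third 0 d array and by 0.81 without the third 1 d array, short of 2-fold. The median of that list, 0.15, was near that of all genes.

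Of 21 genes of arginine, nitric oxide and tryptophan metabolism, 8 rose and none fell past 2-fold. Arg1, arginase, rose by 3.03 from -0.04, -0.07 and -0.87 to 2.71, 2.29 and 3.12. Nos2, the inducible nitric oxide synthase, was undetected at 0 d and at least 1.66-fold higher. Acod1, which makes itaconate in macrophages, was at least 2.05-fold higher, with 1 d values of -4.09, -6.46 and -5.55.

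Stress and energy pathways held fewer calls. Of 29 hypoxia and glycolysis genes, 5 rose, a share (17.2%) near that of all genes, and 8 without the first 0 d array. Among them were carbonic anhydrase Car9 by 1.81 and hexokinase Hk2 by 1.77. Lactate dehydrogenase, Ldha, rose by 1.14 from 4.79, 3.36 and 3.55 to 5.05, 4.98 and 5.09, and was at 0.87 and 0.97 and short of 2-fold without the second or the third 0 d array. Vegfa, the endothelial growth factor, was not called on its brighter probe, at 0.07, and was called up on the other, at 1.62, so the probes disagree. The glucose transporter Slc2a1 changed by -0.87, short of 2-fold. None of 39 oxidative phosphorylation genes was called by limma or by the methods' t-test. At the adjusted p alone 13 of them were lower and 2 higher, the same numbers as at an unadjusted p under 0.05, where 26.1% of all genes were lower and 37.7% higher at the adjusted p. Of 25 genes of the unfolded protein and integrated stress responses, 3 rose: the endoplasmic reticulum proteins Creld2 and Sdf2l1, each by 1.09, and the mitochondrial serine enzyme Shmt2 by 1.14. Hspa5 changed by 0.47, and Ddit3, a factor of the terminal stress response, by -0.41, both past the adjusted p but under 2-fold. Hsph1 was the single heat shock gene of 19 called on its brightest probe, at 1.20, and was at 0.79 and short of 2-fold without the second 0 d array. Hspd1 and Hspa8 were at 0.94 and 0.55 on their brightest probes, short of 2-fold. The other Hspd1 probes were called up, at 1.56, 1.75 and 1.06. Another Hspa8 probe was called up at 2.20, while the rest, at 0.61 and 0.74, were not called.

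Genes of lipid synthesis were lower at 1 d. Myelinating Schwann cells make large amounts of cholesterol and of long fatty acids for their membranes. Of 27 genes of cholesterol synthesis and uptake, 24 had a negative change and 21 were lower at the adjusted p, beside 26.1% of all genes, but 3 passed 2-fold. These were lanosterol synthase, Lss, at 1.95, 2.13 and 2.50 against 1.0, 0.88 and 0.33 (a change of -1.45), the sterol reductase Tm7sf2 at -1.13 and the synthase Hmgcs1 at -1.09. Hmgcs1 was at -0.99, short of 2-fold, without the third 0 d array. The median of the list was -0.72, and the number past 2-fold was 1 with the series matrix values, 13 with arrays centred on their median and 6 without the first 0 d array.

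Of 23 genes of fatty acid synthesis and elongation, 7 fell and 1 rose, with a median of -0.66. Scd, stearoyl-CoA desaturase, stood at 4.24, 4.02 and 2.55 at 0 d and at 1.28, 1.31 and 1.03 at 1 d, a change of -2.40 ± 0.41. Fatty acid synthase, Fasn, went from 6.16, 6.31 and 6.13 to 4.93, 5.0 and 4.81, a change of -1.29 (adjusted p = 1.44e-06). The elongases Elovl7 and Elovl6 fell by 1.38 and by 1.21 and the malic enzyme Me1 by 1.05. Thrsp, a lipogenic protein, fell by 1.60 with 0 d values of 2.97, 2.22 and 0.32. Its change was -1.04 without the first of these arrays and -1.41 without the second, neither of them called, -1.38 and not called without the second 1 d array, and -2.36 without the third 0 d array. For Acaca, acetyl-CoA carboxylase, the brighter probe fell by 1.03 and the other rose by 2.37, so the probes disagree. The regulator Srebf1 changed by 0.19 and was not called, while Mlxipl, the carbohydrate-responsive factor, rose by 1.48 from a dim level. Adipocyte markers, which share some of these enzymes, summed to 59.5 to 106 at 0 d and 71.2 to 104 at 1 d, overlapping ranges.

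Of 26 genes of DNA replication and the G1-S transition, 20 (76.9%) rose and none fell past 2-fold, with a median of 1.25. These genes build the replication origin complex, the helicase and the nucleotide supply. Mcm5, a helicase subunit, rose by 3.03 from -4.07, -4.44 and -4.76 to -1.43, -1.43 and -1.32 (adjusted p = 4.7e-08). Mcm6, its partner, rose by 2.54 from -1.09, -1.19 and -1.72 to 1.14, 1.17 and 1.31, and the loading factor Cdc6 by 2.18. Uhrf1, which carries DNA methylation through replication, rose by 2.06. Pcna, the polymerase clamp, changed by 0.88 from 2.99, 3.18 and 3.13 to 4.00, 3.85 and 4.08, past the adjusted p but short of 2-fold, and its other probe was called up at 1.27. Ccnd1, cyclin D1, changed by 0.44. The count past 2-fold was 17 with the series matrix values and 13 with arrays centred on their median.

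Textbook regulation of this list runs through E2F factors, so the core E2F motif TTTNNCGC, with each N limited to C or G, was sought on both strands of the 250 bases before each gene's start (RefSeq promoter sequences of build GRCr8). Promoter entries were found for 17 of the 26 members, which is too few for a comparison of the list with other genes. The motif stood in 7 of the 17, and in 1.91% of all 27457 promoters and 2.91% of those of genes tested. Among genes called up at 1 d it stood in 47 of 2064 (2.28%), and in the list of G2 and mitosis in 1 of 23. Whether E2F factors had a part in the rises was not tested. The windows below show it for 4 of the genes named above or in the same list, 5′ to 3′ on the strand of the gene, with the match in capitals.
Mcm5, chr19:13488783-13488812, plus strand: cggacgaactcccaggttggttTTTCCCGC
Mcm6, chr13:42404469-42404498, minus strand: gtctgcttttgGCGCGAAAttagcgtgtgg
Uhrf1, chr9:1223076-1223105, plus strand: cccgagtcgggTTTCGCGCgccctggcgtc
Tyms, chr9:120776102-120776131, minus strand: aaggtgcgggtTTTGGCGCcgactacactg
In Mcm5, Uhrf1 and Tyms, the last of which encodes thymidylate synthase and rose by 1.69, the match read on the gene's strand, and in Mcm6 on the opposite one. A match is a stretch of letters and not a measured binding site.

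Of 29 genes of G2 and mitosis, 12 rose and 26 were higher at the adjusted p, beside 18.6% and 37.7% of all genes. The median of the list was 0.91. Survivin, Birc5, rose by 1.89, the phosphatase Cdc25c by 1.86 and cyclin A, Ccna2, by 1.60. The mitotic kinase Cdk1 rose by 1.08 from 2.40, 2.64 and 1.97 to 3.54, 3.24 and 3.48, and topoisomerase Top2a by 1.18. Without the third 0 d array these changes were 0.90 and 0.89, short of 2-fold, and 7 of the 29 genes were called. Cyclin B1, Ccnb1, changed by 0.71, short of 2-fold. Of the inhibitors, Cdkn2a rose by 1.07, or by 0.68 without the second 0 d array and by 0.99 without the second 1 d array, short of 2-fold, and Cdkn1a, the p21 gene, changed by 0.54 on its brighter probe, short of 2-fold, and was called up at 1.40 on the other.

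Changes in ribosome biogenesis were small and of 1 sign. All 31 genes tested had a positive change in this fit and 28 were higher at the adjusted p, beside 37.7% of all genes, with 8 past 2-fold and a median of 0.72. Wdr43, a factor of the small subunit, rose by 2.19 from -3.90, -3.94 and -3.76 to -1.83, -1.65 and -1.56, and Mrto4, of the large subunit, by 1.42 from 0.63, 0.87 and 0.51 to 2.0, 2.10 and 2.17. The box C/D protein Nop58 rose by 1.21 and nucleolin, Ncl, by 1.11. Nucleophosmin, Npm1, at 0.64, and fibrillarin, Fbl, at 0.81, passed the adjusted p but not the fold, although 1 of the other Npm1 probes was called up at 1.08.

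Of 36 proteases that cut the extracellular matrix and their inhibitors, 14 rose and 2 fell. Stromelysin, Mmp3, rose by 5.01, and gelatinase B, Mmp9, by 4.90 from -6.51, -6.11 and -6.69 to -1.28, -1.97 and -1.36, both with 1 of 3 arrays of 0 d above background. The macrophage elastase Mmp12, undetected at 0 d, was at least 6.20-fold higher. Timp1, an inhibitor of the metalloproteinases, rose by 1.58 at a high level, from 4.88, 5.05 and 5.13 to 6.55, 6.55 and 6.69, while Timp4 fell by 1.15 and Timp2 changed by -0.86. The gelatinase Mmp2 and its membrane-bound activator Mmp14 were not called, at -0.51 and -0.19.

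Of 33 collagens, glycoproteins and cross-linking enzymes, 6 rose and 3 fell, near the 18.6% and beside the 3.66% of all genes. At the adjusted p 19 were lower, beside 26.1% of all genes, and the median of the list was -0.45. Among those that rose were hyaluronan synthase Has1 by 2.60, tenascin C, Tnc, by 2.49 from -0.56, -0.88 and -1.35 to 1.43, 1.64 and 1.61, thrombospondin Thbs1 by 2.18, and the hyaluronan receptor Cd44 by 1.77. Fibromodulin, Fmod, fell by 1.70 from 5.77, 5.63 and 5.12 to 3.90, 3.98 and 3.54, and periostin, Postn, by 1.52. The fibrillar collagens Col1a1 and Col3a1, among the brightest genes of the array, changed by -0.71 and -0.75, past the adjusted p but short of 2-fold, with days that did not overlap. The other Col1a1 probes were called down, at -1.04 and -1.24. Fibronectin, Fn1, was not called, at -0.12 and 0.27 on its probes. Markers of nerve fibroblasts and perineurium summed to 874 to 988 at 0 d and 512 to 598 at 1 d. In that marker list 3 of 15 fell and 1 rose, and the tight junction protein Cldn1 of the perineurium fell by 1.20 on its brighter probe, while its other probe, at -0.43, was not called.

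Coagulation and complement genes gave 9 rises among 32 and no fall past 2-fold, beside 18.6% and 3.66% of all genes. The anaphylatoxin receptors C5ar1 and C3ar1 rose by 2.65 and by 1.81, and C5ar1 went from 0.44, 0.87 and 0.98 to 3.71, 3.18 and 3.37. Clotting factor V, F5, rose by 2.48. Complement C1qa, made by resident macrophages, changed by -0.64 and C3 by 0.50, both short of 2-fold, and tissue factor, F3, was not called at -0.15.

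Schwann cell markers summed to 956 to 1140 at 0 d and to 622 to 743 at 1 d. Of 22 myelin genes, 4 fell (6 without the first 0 d array) and none rose past 2-fold, beside 3.66% and 18.6% of all genes. At the adjusted p 15 were lower, beside 26.1% of all genes, and the median of the list was -0.58. Among the calls were Aspa, the enzyme that frees acetate for myelin lipids, at -1.39, the adhesion molecule Mag at -1.33 and the proteolipid Mal at -1.24. Pmp22 changed by -0.62, short of 2-fold. Egr2, the master factor of myelination, stood at 3.58, 3.33 and 3.28 at 0 d and at 3.19, 3.52 and 3.89 at 1 d and was not called, and Sox10 changed by -0.51.

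Of 31 regulators of Schwann cell differentiation and repair, 9 rose and 2 fell, beside 18.6% and 3.66% of all genes. Besides Nrg1, amphiregulin, Areg, an EGF receptor ligand, was undetected at 0 d and at least 5.62-fold higher. The morphogen Shh rose by 3.24 with 2 of 3 arrays of 0 d above background, and Gfap, a filament of repair cells, by 2.51 from -3.72, -4.14 and -3.79 to -1.66, -1.52 and -0.93. The low-affinity neurotrophin receptor Ngfr rose by 1.91 from 0.56, 0.84 and 0.36 to 2.53, 2.38 and 2.59. Gdnf, a trophic factor for motor neurons, changed by 0.83 on its brighter probe, short of 2-fold, while its other, dimmer probe was called up at 4.48. Olig1, a lineage factor, fell by 1.32 from a dim level.

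Axon genes showed no common direction, with 3 of 18 up and 1 down. The neurofilament Nefm rose by 1.59 from -0.80, -1.0 and -0.29 to 1.53, -0.13 and 1.29, with wide 1 d values, and Gap43, the growth cone protein, was not called at -0.08. Sensory neuron markers summed to 5.54 to 6.14 at 0 d and to 5.82 to 6.07 at 1 d, a sum made up mostly of Calca and Tubb3. Of the 11 markers, 2 rose from dim levels, Scn10a by 2.29 and Mrgprd by 2.10, and Isl1 fell, beside 18.6% and 3.66% of all genes. The lists of the blood-nerve barrier (3 up, 2 down of 25), WNT signalling (4 up, 2 down of 32), TGF-beta, activin and BMP signalling (2 up, 2 down of 31), the circadian clock (1 up, 1 down of 18), p53 targets (1 up, 1 down of 20) and fatty acid oxidation (1 up of 27) had shares of rises below the 18.6% of all genes. The median of the WNT list, 0.25, turned negative with quantile scaling and with the series matrix values, where 1 rose and 3 fell, and also with median centring. With median centring 1 of the TGF-beta list rose and 6 fell, and with the series matrix values none of the fatty acid oxidation list rose and 4 fell. Pericyte and smooth muscle markers gave 1 rise among 10 and erythroid markers 1 among 7, the haemoglobin gene Hbb, with 0 d values of 1.85, 1.49 and -1.0 and 1 d values of 1.96, 2.71 and 3.28, whose change of 1.87 was 0.98 and not called without the lowest 0 d array and was not called without the second or the third 1 d array either.

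**Figure D3:**
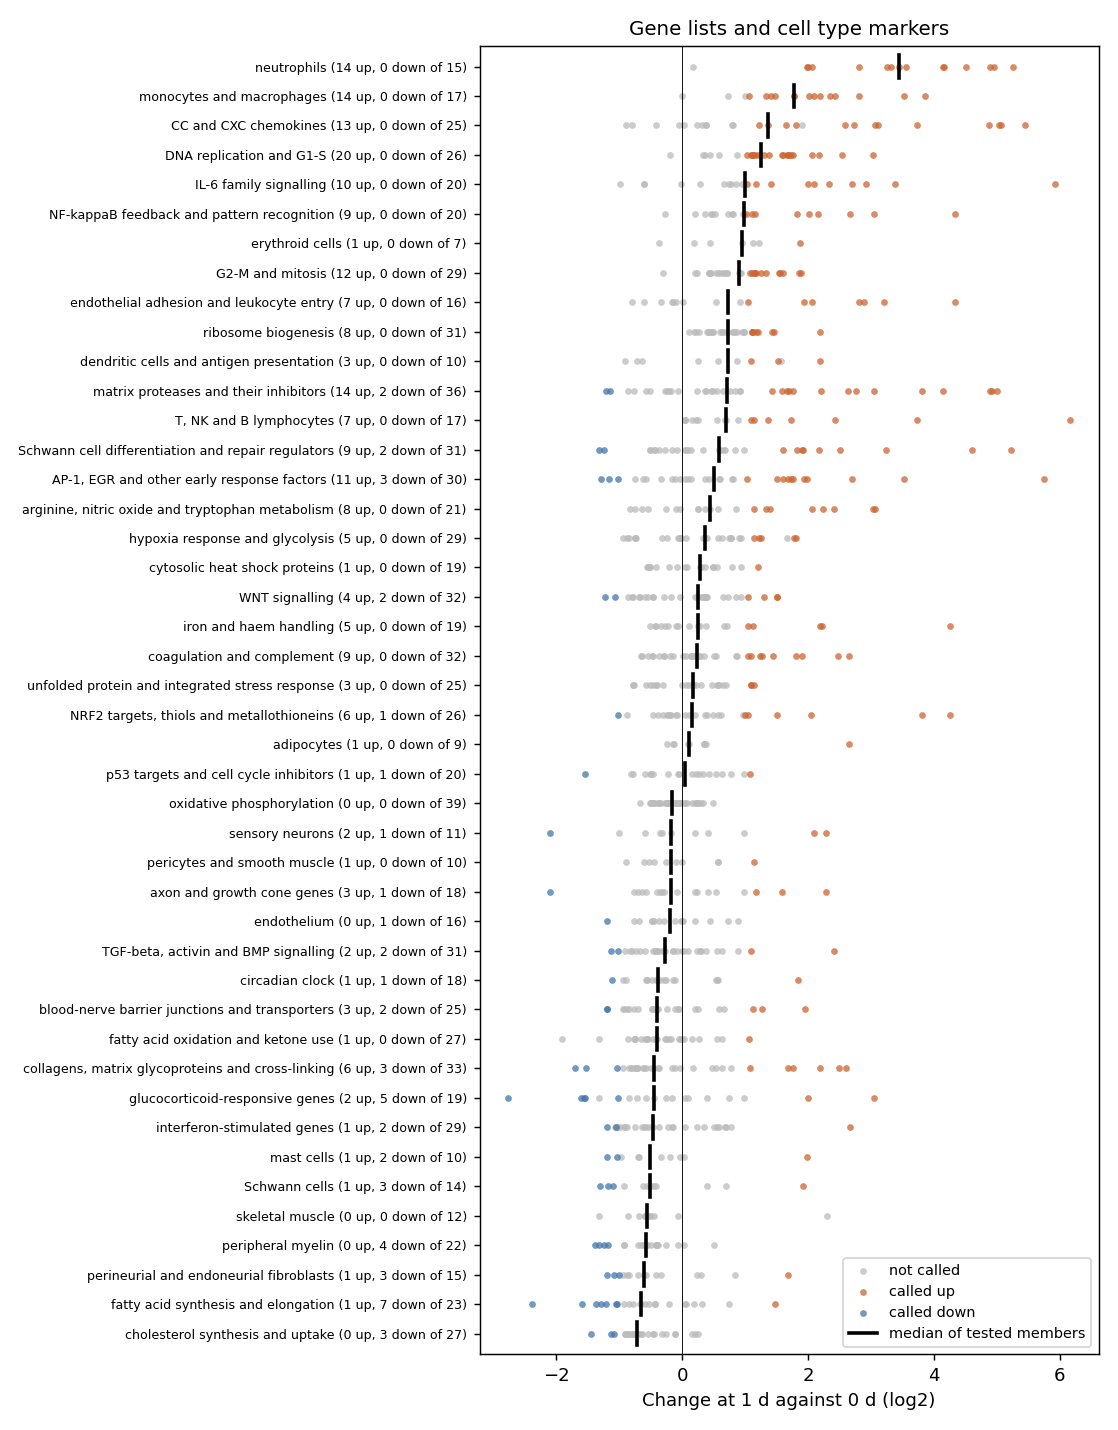
Change at 1 d against 0 d (log2) of each tested member of the gene lists and cell type marker lists, ordered by the median of the list (black bar). Orange points were called up, blue points down and grey points were not called, with the counts beside each name. Neutrophil markers lie highest, with a median of 3.45, and cholesterol synthesis lowest, with a median of -0.72.

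To see which levels at 1 d differed from those of later days, each gene at 1 d was also set against the mean of 4, 7 and 14 d. This contrast leaves out the 0 d arrays but shares the 1 d arrays with the main comparison, so it is no independent check. The series holds no nerve between 0 d and 1 d, so a peak before 1 d could not be seen. Vgf, S100a8, Serpinb10, Cxcl2, Cxcl3 and C1qtnf3 were picked from the named genes for the largest such differences, so their sizes are a description only. Of all genes, 1073 (7.49%) were higher and 655 (4.57%) lower at 1 d, past 2-fold. Vgf was 4.31 higher at 1 d than later on the log2 scale, S100a8 4.20, Serpinb10 3.77, Cxcl2 3.75 and Cxcl3 3.72, and every 4 d array of these genes lay below every 1 d array in the plot of levels over 14 days. C1qtnf3 was 4.61 lower at 1 d than later (adjusted p = 9.43e-07), having gone from -0.39, -1.02 and -1.43 at 0 d to -3.18, -2.68 and -3.31 at 1 d. Of 15 neutrophil markers 9 were higher at 1 d than later and none lower past 2-fold. Among lymphocyte markers 14 of 17 were lower at 1 d than later, with Cd3e 3.20 and Cd2 2.37 below the later mean. Ccl5, not called at 1 d, was 3.36 lower at 1 d than later.

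None of 26 replication genes was higher and 1 was lower at 1 d than later, whereas 9 of 29 mitotic genes were lower, Birc5 by 1.51 and Ccnb1 by 1.06. For lipid synthesis, 18 of 27 cholesterol genes were higher at 1 d than later and none lower, so that the level of 1 d lay between those of 0 d and of the later days. Tm7sf2 was 1.62 higher at 1 d than later and Sqle, squalene epoxidase, 1.44. Ngfr, in contrast, was 1.55 lower at 1 d than later, and C1qa 2.34 lower.

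**Figure D4:**
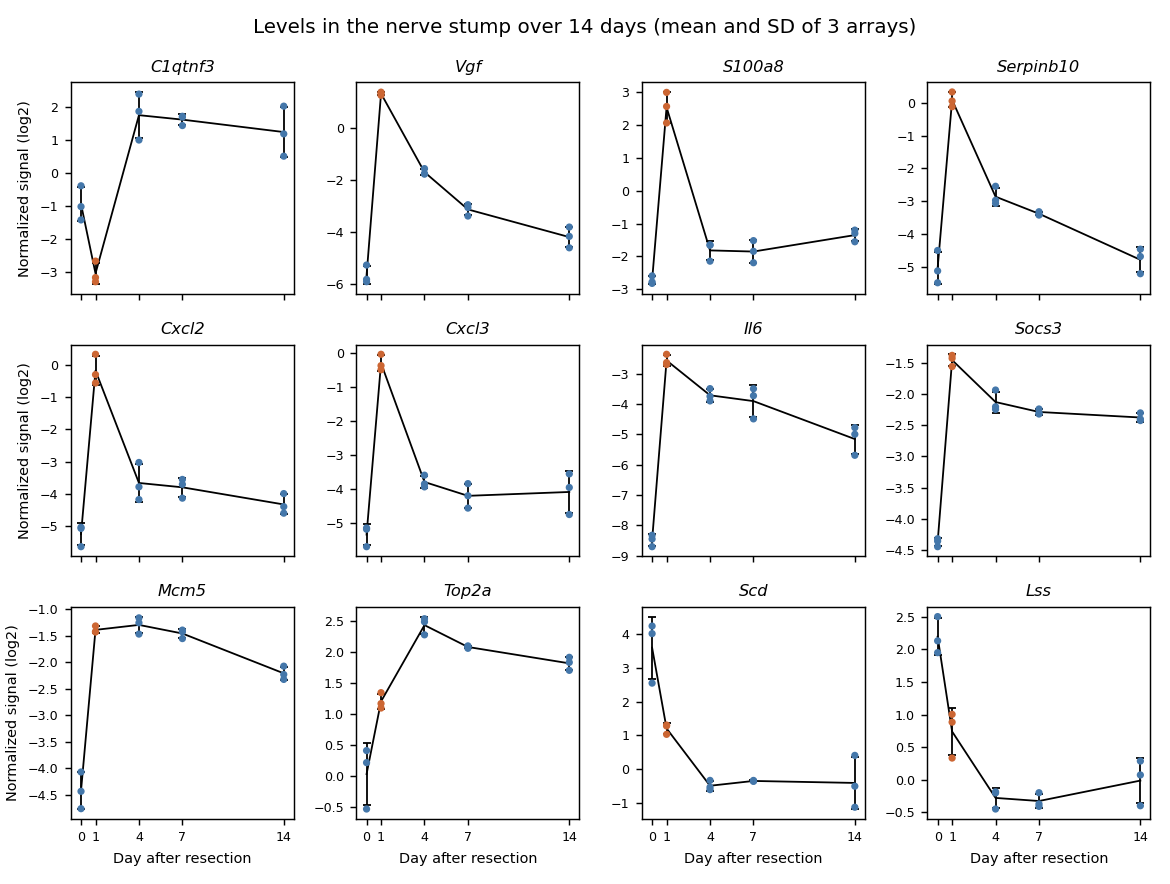
Level in the nerve stump (log2 normalized signal) of 12 genes against the day after resection, with a point per array (1 d in orange), lines through the means and bars for the SD of 3 arrays. Vgf, S100a8, Serpinb10, Cxcl2 and Cxcl3 are highest at 1 d, C1qtnf3 is lowest at 1 d, Mcm5 at 4 and 7 d is near its 1 d level, and Scd and Lss are lower at 4 d than at 1 d.

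The ganglia of the same series allowed a test of whether the change at 1 d differed between stump and ganglia. It differed at an adjusted p under 0.05 in 5356 of 13865 genes (38.6%), and past 2-fold in 1107 genes (7.98%) with the higher change in the nerve and in 553 (3.99%) with the lower. Cd8a changed by 6.17 in the nerve and by -0.05 in the ganglia, a difference of 6.22 (adjusted p = 1.76e-11), and Vgf by 6.96 and 1.28, a difference of 5.68. Nrg1 changed by -0.23 in the ganglia and Hmox1 by 0.36.

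Other genes changed in both tissues or in the ganglia. Il6 changed by 5.93 in the nerve and by 5.0 in the ganglia, and the difference of 0.93 was not called (adjusted p = 0.13). Arg1 changed by 3.03 and 2.80, and Sox11 by 3.53 and 3.08, with no difference called either, where the nerve values of Il6 and Sox11 start from undetected 0 d levels. Atf3, an injury-induced factor of axotomized neurons, changed by -0.33 in the nerve and by 4.53 in the ganglia, a difference of -4.87 (adjusted p = 3e-15). Gadd45a, a damage-response gene, changed by -0.06 and 2.89, Jun by 0.04 and 1.24, and Cdkn1a, on the brighter of its disagreeing probes, by 0.54 and 1.75. Hamp, the iron hormone hepcidin, changed by 1.13 in the nerve and by 5.0 in the ganglia, and its nerve change was under 2-fold without the second 0 d or the second 1 d array (0.99 and 0.97).

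Of the replication and mitotic genes, 23 of 26 and 27 of 29 differed between nerve and ganglia at the adjusted p, beside 38.6% of all genes. Their median changes in the ganglia were -0.07 and -0.67. For ribosome biogenesis 28 of 31 differed, with a ganglion median of 0.05, and for cholesterol synthesis 21 of 27, with a ganglion median of 0.12. Of the interferon genes 2 of 28 differed. Since slides held arrays of both tissues, the slide could enter this fit as a fixed block, and the number of probes past the adjusted p then went from 12039 to 5221. Vgf, Cd8a, Nrg1, S100a8 and Atf3 kept their call and sign in that fit.

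**Figure D5:**
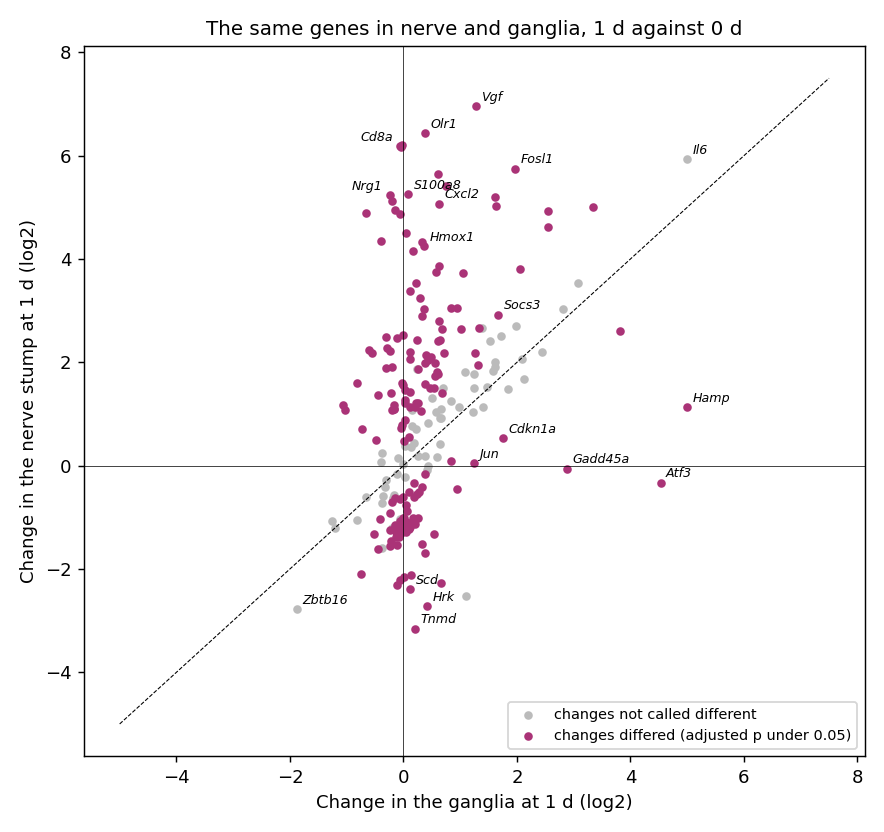
Change at 1 d against 0 d (log2) in the ganglia (horizontal) and in the nerve stump (vertical) for the named genes tested in both tissues, with the dashed line marking equal change. Purple points differed between the tissues at an adjusted p under 0.05 and grey points were not called different. Vgf, Olr1, Cd8a and Nrg1 lie near 0 to 1.28 for the ganglia, Atf3, Gadd45a and Jun near 0 for the nerve, and Il6 is high in both.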

How the data were processed

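Total RNA of each sample was hybridised to 1-colour Agilent whole rat genome arrays, 30 in all, of which the 15 nerve arrays entered the main fit and all 30 the comparison with the ganglia. Per the file headers, the deposited intensity values came from Agilent Feature Extraction 10.5.1.1, which subtracted background and detrended the signal within each array. The log2 values of the series matrix are quantile-normalized values deposited by the authors and served as an alternative. The members, gene lists, markers and tests were chosen with earlier results of these data known.

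From the intensities, spots flagged as outliers and control spots were left out, spots of 1 probe were averaged, and log2 of the signal minus the array's 75th percentile gave the level. Probes entered the test when every array of some nerve day read them well above background, and they were tested with limma 3.58.1 in R 4.3.3 (lmFit, eBayes, all 5 days in 1 fit, Benjamini-Hochberg adjustment), and a call needed an adjusted p under 0.05 and a change over 2-fold. All adjusted p-values in the text are from these limma fits. The later days entered as the mean of 4, 7 and 14 d, and the ganglia as the difference of both changes. Where a probe was not well above background on any 0 d array, the fold is a lower bound against the higher of its own level and, per array, the lowest signal among probes well above background. A gene was read from its brightest nerve probe, and other tested probes are given where their call differs. Gene symbols came from the files, updated through RefSeq accessions, of which 13275 of 20304 matched. Coordinates are those of the files, build rn4. Promoter sequences are from RefSeq's GRCr8 table.

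Genes were named by a rule. It took the 12 largest rises and 12 largest falls among called genes well above background on all 6 arrays whose days did not overlap, the 10 largest lower bounds, up to 4 called members and the textbook members of each list, and up to 6 genes with the largest differences to the ganglia and to the later days. In simulated data with normal noise of the arrays' own spread, 200 of 34976 probes were changed. Called were 82 of 100 probes changed by 1.5 on the log2 scale, 94 of 100 changed by 3, and 7 unchanged probes. Far more probes passed the adjusted p in the real comparison, so these rates do not carry over to it. Other scalings, background correction, filters, the methods' t-test, the slide or the replicate number as a block and each array left out were tried. The number of arrays, 3 per group, limits the precision. The 2 tissues of 1 d lay partly on shared slides, and nerve of 0 d and of 1 d on separate ones. Replicate numbers were checked for pairing and did not pair the samples. Some genes of these lists are not reported here.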

Additional observations from a re-analysis of the deposited data

Results flagged for a closer look

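The change at 1 d differed between nerve and ganglia for 12039 of 33806 probes (35.6%) by the interaction term of limma at an adjusted p under 0.05. Of the 28 leading genes in that fit, 25 differed. They had been chosen for a large change in the nerve, which is part of this difference, so their count cannot be compared with the share of all probes. Each value below is the nerve's log2 change minus that of the ganglia. Prss22, Mcemp1, Olr1 and Reg3g were not well above background on any 0 d nerve array, so that their values rest on nerve levels at background and are no exact sizes. For these genes the nerve's own rise was at least 19.6-fold, 32.0-fold, 19.7-fold and 15.1-fold.

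Among genes with the higher change in the nerve were the secreted peptide Vgf at 5.68, the growth factor Nrg1 at 5.47, the T cell coreceptor Cd8a at 6.22 and the AP-1 subunit Fosl1 at 3.78. S100a8 and Slpi, of the neutrophil marker list, differed by 5.17 and 5.11, and Mcemp1 and Olr1 by 6.23 and 6.07. Which cells of the stump made these transcripts was not tested. The chemokines Cxcl14, Cxcl2 and Cxcl3 differed by 4.93, 4.45 and 3.41. The protease Prss22 differed by 6.25, the serpin Serpinb10 by 5.34, the interleukin 33 receptor Il1rl1 by 5.05 on the brighter of its disagreeing probes, the adhesion molecule Epcam by 4.66 and the lectin Reg3g by 3.6.

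Among genes with the lower change in the nerve, Atf3, a factor induced in injured neurons, stood at -4.87. The BH3-only protein Hrk was at -3.15, the growth arrest gene Gadd45a at -2.95, the factors Isl1 and Jun at -1.35 and -1.2, and the cell cycle inhibitor Cdkn1a at -1.22 on the brighter of its probes, which disagreed in the nerve. The genes of connective tissue and lipid synthesis in this direction were Tnmd at -3.37, Scd at -2.51, C1qtnf3 at -2.26, Mamdc2 at -2.19 and Egfl6 at -2.15. Rnase2 was at -2.93 and Grifin at -2.16.

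With the slide as a fixed block, a setting added after the data were seen, all 29 genes named here had the same sign and 27 were past the adjusted p. The exceptions were Reg3g, at 1.35 (adjusted p = 0.352 in limma), and Rnase2, at -1.5 (adjusted p = 0.212 in limma). In that fit Vgf was at 5.61, S100a8 at 6.08 and Atf3 at -4.89.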

How the results depend on the processing

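Against 6557 probes up and 1206 down, quantile scaling gave 4349 and 2597, normexp with quantile scaling 1602 and 631, the series matrix values 4255 and 2534, and cyclic loess, added after the data were seen, 4178 and 2694. Median centring gave 5018 up and 2948 down. Probes well above background on all 6 arrays gave 3344 rises, and dropping the fold threshold gave 12907 up and 8764 down. The 4018 probes that differed from later days became 1428 with normexp. The 12039 probes that differed from the ganglia became 5221 with the slide as a fixed block, also added later. The causes were not tested, other than the fewer probes and the dropped threshold. Leaving out single arrays, with the pooled fit, gave 6307 to 6706 up, 1057 to 1371 down, 3729 to 3877 for later days and 10472 to 12428 for the ganglia.

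Samples of the same replicate number correlated at 0.179, 0.128 and -0.091, so the numbers do not pair them. With the replicate block the counts were 6550, 1205, 3994 and 11725, and of the named genes Atp1b4 lost its call. Of 234 named genes none changed direction in a called value. The calls lost were 28 with quantile scaling, 56 with normexp, 30 with the series matrix values, 21 with median centring, 23 with cyclic loess and 9 with slides as random blocks. Of 44 list medians, 8 changed sign with median centring and 1, that of WNT signalling, with quantile scaling. Counts in lists moved as well. With median centring 6 mitotic genes rose instead of 12, 13 replication genes instead of 20, 3 ribosome biogenesis genes instead of 8, 10 matrix genes fell instead of 3, and the hypoxia list had 2 up and 6 down. Array number and probes near background at 0 d limit the rises of dim genes.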

Other observations

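The rule for leading genes asked for signal on all 0 d arrays or on none, and so passed over genes detected on some of them. The 4 genes given here were chosen after their values were seen. Clca4l, a calcium-activated chloride channel regulator, was well above background on 2 of 3 arrays of 0 d and went from -6.19, -6.19 and -5.89 to 1.68, 1.44 and 1.89, a change of 7.76. Its relative Clca5 changed by 7.01, from -6.77, -7.09 and -6.12 to 0.43, 0.001 and 0.63. Both were higher at 1 d than on the later days, by 3.41 and by 3.29.

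Nppb, the precursor of B-type natriuretic peptide, went from -5.71, -6.61 and -6.61 to 1.63, 1.43 and 1.29, a change of 7.76. In the ganglia it stood at a mean of 0.94 at 0 d and 0.38 at 1 d. Ucn2, a peptide of the corticotropin-releasing hormone family, changed by 6.92, from -6.37, -5.71 and -5.94 to 0.90, 0.89 and 0.95. The days did not overlap for any of the 4 genes, and part of each 0 d value lies at background.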
